A study of Mus musculus with 16 samples.

Results

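Ly49 cells are described here, a group of sorted CD8 T cells of the lymph node that carried transcripts of Ly49-type receptors. They were chosen by a gate on 6 genes of the deposited lymph node count table, Klra1, Klra3, Klra6, Klra7, Klra9 and Klre1. A cell was a Ly49 cell when its unique molecular identifiers (UMIs, each counting 1 captured transcript molecule) of these genes summed to 2 or more. This held for 324 of 3266 cells (9.92%, exact Clopper-Pearson 95% interval 8.92 to 11). They were compared with the 2616 cells in which the sum was 0, called comparison cells below. The 326 cells with a sum of 1 were on neither side.

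The series holds RNA and T cell receptor libraries of CD8+CD44+ T cells from the lymph node and skin of C57BL/6 mice labelled as having melanoma-associated vitiligo. The mice were 16 weeks old and were taken 45 days after tumor surgery. The series calls them MAV mice and the node a tumor draining one. The 16 samples are 4 libraries on 4 sequencing lanes each, and lanes of a library share its cells; how many mice went into it was not found in the sources used here. Ly49 cells and comparison cells came from the same lymph node RNA library, which was dissociated mechanically. With 1 library there is no replicate, so no difference below has a test, cells are not replicates, and every interval covers counting error only. All animals shared strain, age and disease label, and no healthy or untreated group was analysed here.

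Ly49 receptors are C-type lectin-like proteins best known from natural killer (NK) cells, where most of them bind major histocompatibility complex (MHC) class I molecules and restrain the cell. Their cytoplasmic tails recruit the tyrosine phosphatase encoded by Ptpn6. Each NK cell expresses its own combination of these clustered genes, and some memory-phenotype CD8 T cells express them as well. Klra1, Klra3, Klra6, Klra7 and Klra9 belong to this family, whereas Klre1 encodes a related receptor of the same NK gene complex.

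The 5 Klra genes of the gate lie on the minus strand of chromosome 6 between 130013033 and 130386874 (GRCm38, GENCODE M21), within 374 kb. Klre1 lies at 129577905 to 129585827 on the plus strand. The starts of the 5 coding sequences are shown because near-identical copies limit how reads can be assigned among them. The first 90 bases are from GENCODE M21 transcripts, and capitals mark bases that differ from Klra3.
Klra3: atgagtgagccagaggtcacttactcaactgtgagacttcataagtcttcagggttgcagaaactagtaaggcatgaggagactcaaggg
Klra9: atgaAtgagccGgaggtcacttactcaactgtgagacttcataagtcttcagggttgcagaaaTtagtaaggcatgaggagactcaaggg
Klra6: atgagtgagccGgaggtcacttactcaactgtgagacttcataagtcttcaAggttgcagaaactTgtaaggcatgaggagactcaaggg
Klra7: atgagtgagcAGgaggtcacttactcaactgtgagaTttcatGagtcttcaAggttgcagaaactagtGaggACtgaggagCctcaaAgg
Klra1: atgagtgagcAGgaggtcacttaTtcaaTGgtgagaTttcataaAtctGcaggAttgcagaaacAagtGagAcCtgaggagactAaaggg
Klra9 and Klra6 each differed from Klra3 at 3 of these 90 bases, Klra7 at 10 and Klra1 at 14. Over the whole coding sequence, identity was 95.9% for Klra3 and Klra9, 91.6% for Klra6 and Klra9, 91.0% for Klra3 and Klra6 and 88.0% for Klra1 and Klra7. The other 6 pairs lay between 81.3% and 83.7%. Of the 60-base stretches of the Klra3 transcripts, 2.92% also occurred in those of Klra9, so counts of Klra3 and Klra9 are uncertain where reads fell there.

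A related stretch upstream of the start is shown for 4 Klra genes of the gate, from their RefSeq promoters (GRCm38.p6). It is shown because it ends in CTTTGA in Klra6 and Klra7 and in other letters in Klra3 and Klra9. Capitals mark the last 6 bases, and earlier bases, which also differ between the genes, are not marked. Its end lies 100 bases before the start for Klra6, 70 for Klra7, 19 for Klra9 and 0 for Klra3. The stretches lie on the minus strand at chr6:130027055-130027114 (Klra6), chr6:130233393-130233452 (Klra7), chr6:130337627-130337686 (Klra3) and chr6:130193132-130193191 (Klra9).
Klra6: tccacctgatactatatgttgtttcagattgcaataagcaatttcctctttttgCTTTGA
Klra7: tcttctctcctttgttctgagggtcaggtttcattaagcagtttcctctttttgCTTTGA
Klra3: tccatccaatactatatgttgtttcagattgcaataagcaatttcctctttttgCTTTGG
Klra9: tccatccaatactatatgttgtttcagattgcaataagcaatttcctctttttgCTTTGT
The core CTTTGA, as read by TCF/LEF factors, was found on either strand in promoters of 2 of the 6 gate genes, Klra6 and Klra7, and in 13.8% of the 32851 promoters of the table, each searched over 250 bases before the start. The RUNX core TGTGGT was found for Klra1 and Klre1 and in 14% of all promoters. The T-box half-site AGGTGT was found for none of the 6 genes and in 11.8% of all promoters. These are matches of letters and were not tested against binding data.

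The gate was filled mainly by 4 genes. Among Ly49 cells, Klra7 was seen in 47.5%, Klre1 in 43.5%, Klra6 in 40.4% and Klra3 in 34.0%, whereas Klra1 was seen in 11.4% and Klra9 in 8.02%. These values describe the gate and support nothing by themselves. Of the 324 cells, 121 had UMIs of 1 gate gene, 144 of 2, 48 of 3, 9 of 4 and 2 of 5, and none had all 6. Just inside the threshold were 135 cells with a sum of 2, of which 59 carried 2 different gate genes, and the highest sum was 19 in 1 cell.

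To see whether the receptors went together, each gate gene was left out in turn and cells were sorted by the other 5. Similar gene copies can share reads, so the genes are not fully separate measurements. Klra6 was seen in 29.0% (23.7 to 34.8) of the 272 cells with 2 or more UMIs of the other genes and in 1.76% (1.30 to 2.34) of the 2663 cells with none, a 17.4-fold difference in level as counts per 1e6 UMIs (CPM). The difference in level was 13.5-fold for Klra1, 8.08-fold for Klra9, 7.57-fold for Klra7 and 6.34-fold for Klre1. Klra3 stood lowest, with 14.1% (9.99 to 19.0) against 5.22% (4.42 to 6.11) of cells and a 3.76-fold difference in level. Among cells with 3000 to 6000 UMIs, which sets both sides at a like depth, the values were 21.4-fold for Klra6 and 2.95-fold for Klra3, the highest and the lowest of the 6.

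**Figure D1:**
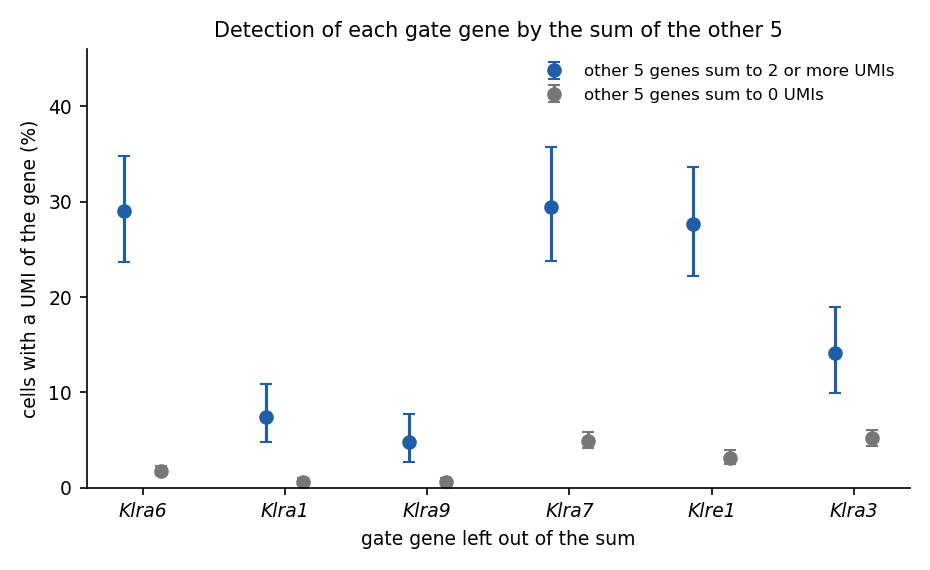
Share of cells with a UMI of each gate gene (y axis, percent) when the other 5 gate genes summed to 2 or more (blue) or to 0 (grey), with exact 95% intervals for counting error. Klra6 goes from 1.76% to 29.0%, and Klra3 from 5.22% to 14.1%.

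Pairs differed in how often they shared a cell. Of the 170 cells with Klra6 in the table, 40.0% also had Klra7, against 6.27% of cells without Klra6. Of the 49 cells with Klra1, 46.9% had Klra7 and 36.7% had Klra6, but 2 (4.08%) had Klra3. Of the 205 cells with Klra3, 10.2% had Klra7, close to the 7.87% among cells without Klra3. Klra6 was seen in 14.1% of cells with Klra3 and 4.61% without it, and Klre1 in 12.7% and 5.68%. For Klra9 the shares were 3.9% and 1.01%, and for Klra1 0.976% and 1.54%. The pair seen together in the most cells was Klra6 and Klra7, in 68.

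The labelled cell type was checked against its markers. A UMI of Cd3e, Cd3d or Cd3g, the CD3 chains of the T cell receptor complex, was seen in 324 of 324 Ly49 cells, and Cd8a or Cd8b1, the CD8 chains, in 320. A productive TRB contig (assembled receptor beta chain) was found in 295 of them (91.0%), against 88.3% of comparison cells. At least 2 TRB sequences, as when a droplet holds more than 1 cell, were found in 12.9% (9.28 to 17.2) of Ly49 cells with a TRB contig and 10% (8.85 to 11.3) of comparison cells. Of the 6 genes listed as defining NK cells, Ncr1, Klrb1c, Klra8 and Klra4 are not in the table, which leaves Tyrobp and Fcer1g. Together these 2 had 28.8 CPM in Ly49 cells and 6.43 in comparison cells. Summed over the 7 of 14 NK cell markers in the table, the levels were 757 and 577 CPM. Of the 1285 UMIs of this sum in Ly49 cells, Il2rb gave 678, Cd7 312 and Eomes 204. Of the 7 markers, 6 had a log2 ratio above 0 and Gzma had -0.94. Itga2, an integrin chain of NK cells, had 13 and 34 UMIs (log2 ratio 1.10, 0.29 to 2.29). Summed levels of the marker lists of B cells (219.6 and 243 CPM), myeloid cells (216 and 218 CPM) and dendritic cells (173 and 184 CPM) had ratios whose intervals hold equality, with Cd79a, Csf1r, Itgam and Flt3 not in the table. Single members of these lists lay apart. Cd74, the MHC class II invariant chain, had 6 UMIs in Ly49 and 332 in comparison cells (-2.76, -4.53 to -1.93), the myeloid gene Lyz2 had 0 and 32, and Fcer1g, which is also on the myeloid list, was higher, as given with the adaptors. The NKT and MAIT cell list had 2684 and 2163 CPM over 3 of 8 genes, without Zbtb16. Ly6c2, described with the memory genes below, gave 4275 of its 4559 UMIs in Ly49 cells. The gamma-delta T cell list had 28.3 and 34.8 CPM over 2 of 14 genes, without Trdc, and 1 of the 2, the gamma chain segment Trgv2, was seen in 7.10% and 1.95% of cells (0.90, 0.33 to 1.59). The CD4 T cell list, of which Cd4 and Foxp3 are not in the table, had 24.1 and 52.6 CPM. The part of these markers in the results was not tested.

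Depth moved with the gate. Ly49 cells had a median of 4935.5 UMIs and 1558.0 genes, and comparison cells 4275.0 UMIs and 1417.5 genes. The share of Ly49 cells was 3.82% (2.55 to 5.47) among cells under 3000 UMIs, 10.7% (9.39 to 12.2) among those with 3000 to 6000 and 15.2% (12.3 to 18.5) above 6000. Gene levels below are therefore CPM. The log2 ratio was repeated at matched depth, in the 213 Ly49 and 1569 comparison cells with 3000 to 6000 UMIs, whose medians were 4635.0 and 4499.0 UMIs. It is printed for some genes only, and a gene without it did not always keep its value. For example, Ly6a went from -1.40 in all cells to -1.85 at matched depth, and Gem from 1.46 to 1.82. The median mitochondrial share was 2.61% and 2.59%.

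Across the 8866 genes outside the gate with at least 50 UMIs over both sides, Ly49 cells were set apart more by what they had little of than by what they had much of. The log2 ratio, Ly49 over comparison cells with 1 CPM added to each side, was past 1.5-fold higher for 175 genes (1.97%) and past 1.5-fold lower for 601 (6.78%), and its median was -0.04, with 42.6% of genes above 0 and 57.4% below. The exact interval of the ratio left out equality for 124 of the higher and 312 of the lower genes. In cells with 3000 to 6000 UMIs, 123 of those 124 and 311 of those 312 had the same direction, and 104 and 251 were past 1.5-fold. With Ccl5-positive cells alone on both sides, 110 and 276 remained past 1.5-fold.

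The chemokine gene Ccl5, a gene of antigen-experienced CD8 T cells, was the most abundant of the higher genes. Ly49 cells had 7543 UMIs in 314 of 324 cells, or 4441 CPM, with a median of 18.0 UMIs per cell. Comparison cells had a UMI in 2053 of 2616 cells, or 2381 CPM, with a median of 5.0, so the log2 ratio was 0.90 (0.86 to 0.94) and 1.07 at matched depth. After thinning every cell to 2000 UMIs, which left out 12 Ly49 and 311 comparison cells, the shares with a Ccl5 UMI were 95.2% and 71.5%. Read the other way, 11.7% (10.5 to 13.0) of cells with Ccl5 and 1.70% (0.817 to 3.10) of cells without it were Ly49 cells. Ccl5 also differed among cells with Ccl5 alone, with a log2 ratio of 0.65 (0.61 to 0.69).

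Gem, which encodes a small GTP-binding protein, had the highest ratio of the 15 genes chosen as highest among those seen in at least 10% of Ly49 cells, with UMIs in 19.4% of Ly49 and 5.39% of comparison cells and 40.6 against 14.1 CPM (log2 1.46, 1.1 to 1.94). Lrrk1, a kinase gene, followed with 43.6 against 16.4 CPM (1.36, 1.0 to 1.81). Ctla2a and Ctla2b, neighbouring genes for cysteine protease inhibitors on chromosome 13, were both higher. Ctla2a had 469 against 243 CPM (0.95, 0.84 to 1.07) and was seen in 83.6% and 49.0% of cells, and Ctla2b had 47.7 against 18.1 CPM (1.35, 1.0 to 1.77). They are similar genes, so the counting could have split reads between them. Qrfp (1.25), which encodes a neuropeptide precursor, and Anxa2 (1.07), a calcium-dependent membrane-binding protein gene, came next. Klrc1, Klrk1, Arl4d, Wdr95, Pogk, Golga2, Arsb and Tefm completed the 15 highest with Ccl5, at 0.81 to 0.96. At matched depth the intervals of Arl4d, Pogk, Golga2 and Tefm held 0, with ratios of 0.74, 0.60, 0.63 and 0.68.

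Rgcc, a cell cycle regulator gene, was the lowest of the 15 lowest genes, with 28 UMIs in Ly49 cells and 766 in comparison cells, or 16.5 against 68.4 CPM (log2 -1.99, -2.65 to -1.51). Capg, an actin-capping protein gene, had 23.6 against 86.0 CPM (-1.82, -2.36 to -1.41). Itgae, the CD103 integrin chain of tissue-resident cells, had 18.8 against 53.8 CPM (-1.47, -2.07 to -1.0). Ly6a, the Sca-1 surface antigen, had 60.1 against 161 CPM (-1.40, -1.72 to -1.13), and 1 cell held 18.6% of its UMIs in Ly49 cells. Dapl1, a gene of quiescent T cells, had 77.1 against 201 CPM (-1.37, -1.65 to -1.13). S100a4 followed at -1.29, and -0.80 at matched depth, though it was seen in 10.5% of Ly49 and 10.7% of comparison cells. Gm8369, Bcl2a1b, Donson, Inpp4b, Trim59, Igflr1, Pou2f2, H2-DMa and Batf lay between -1.17 and -0.85.

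**Figure D2:**
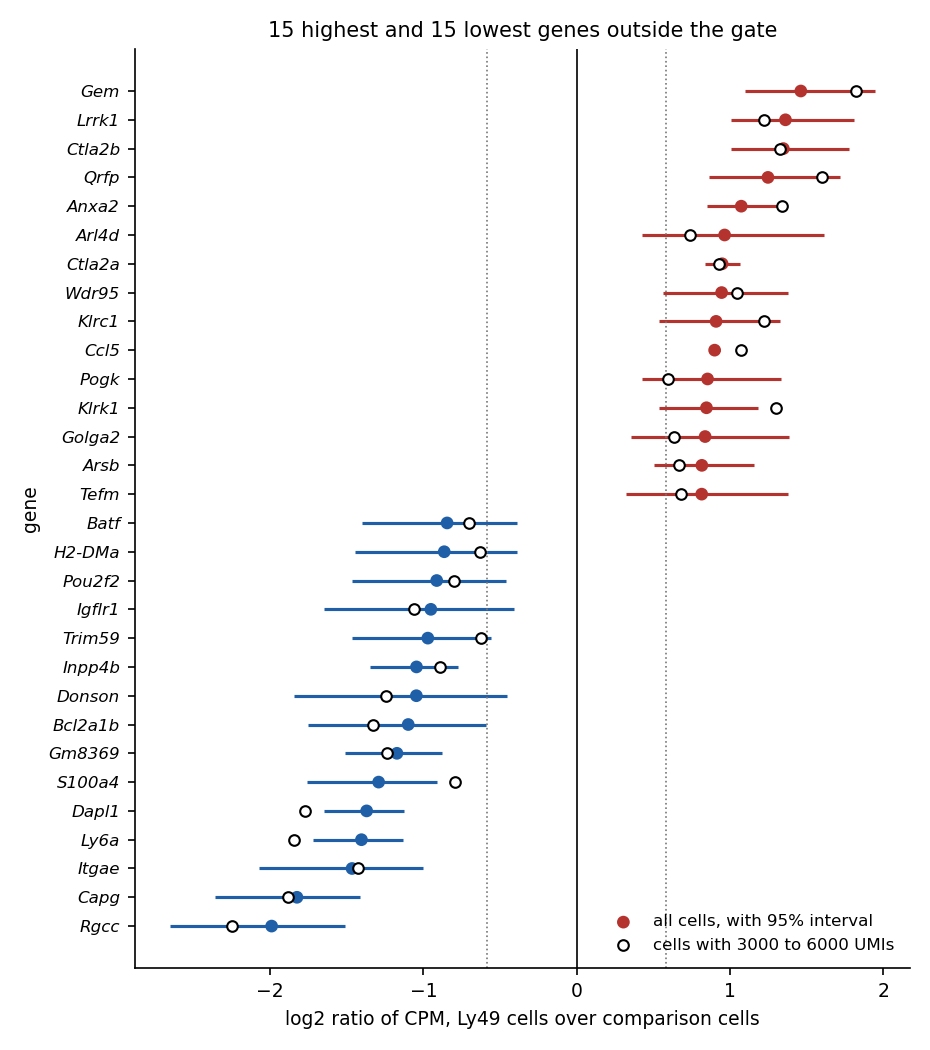
Log2 ratio of CPM, Ly49 over comparison cells, for the 15 highest (red) and 15 lowest (blue) genes outside the gate, with exact 95% intervals for counting error; open circles are cells with 3000 to 6000 UMIs and dotted lines mark 1.5-fold. Every open circle is on the same side of 0 as its filled point, which the rule for these genes required.

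Receptors of the NK gene complex outside the gate are encoded next to the gate genes, and 6 of the 25 on the list are in the table. Of these, 3 were past 1.5-fold higher and none lower, 5 lay above 0, and the median log2 ratio was 0.71. Over all 9420 genes with at least 20 UMIs, 2.43% were past 1.5-fold higher, 7.7% lower, 42.5% above 0 and the median was -0.05. In cells with 3000 to 6000 UMIs, 4 of the 6 were past 1.5-fold higher, beside 4.85% of all genes higher and 10.5% lower. With Ccl5 on both sides 3 were, beside 2.58% higher and 7.13% lower. Klrd1, the CD94 chain that pairs with NKG2 proteins, was the most abundant, with 314 against 211 CPM (0.57, 0.43 to 0.71) and UMIs in 77.2% and 51.9% of cells. Klrc1, the inhibitory NKG2A chain, had 41.8 against 21.8 CPM (0.91, 0.54 to 1.33). Klrk1, which encodes the activating receptor NKG2D, had 60.1 against 33.0 CPM (0.85, 0.53 to 1.19), and 1.30 at matched depth. Its level differed by gate gene. In Ly49 cells with 1 gate gene it had 146 CPM (89.0 to 225) with Klre1 and 83.5 (43.2 to 146) with Klra7. It had 18.8 (6.09 to 43.8) with Klra3, and 0 UMIs in the 5, 8 and 4 cells with Klra1, Klra6 and Klra9. Clec2d, which encodes a ligand of an NK receptor, was lower (220.2 against 261 CPM; -0.24, -0.40 to -0.09), and Clec2i had 0.29 (0.01 to 0.58).

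Klrc2, the activating NKG2C chain, showed the widest difference of these receptors at a low level. It was seen in 25 of 324 Ly49 cells (7.72%, 5.06 to 11.2) and 25 of 2616 comparison cells (0.956%, 0.619 to 1.41), with 17.7 against 2.86 CPM and a log2 ratio of 2.27 (1.86 to 3.39), and of 3.11 (2.64 to 4.86) at matched depth. Its share after thinning was 3.85% and 0.477%. Of Ly49 cells with Klrk1, 25% (14.4 to 38.4) also had Klrc2, against 5.22% (2.72 to 8.94) of comparison cells with Klrk1. At least 1 of Klrk1, Klrc1 and Klrc2 was seen in 29.3% (24.4 to 34.6) of Ly49 and 13.1% (11.8 to 14.5) of comparison cells.

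Among 17 adaptors and signalling genes of NK receptors, 1 was past 1.5-fold higher and none lower, beside 2.43% and 7.7% of all genes. Their median was 0.09, and 3 were higher at matched depth, beside 4.85% of all genes. The 1 gene past 1.5-fold higher in all cells was Fcer1g, which encodes a signalling adaptor of Fc and NK receptors. It was seen in 22 of 324 Ly49 cells (6.79%, 4.30 to 10.1) and 17 of 2616 comparison cells (0.650%, 0.379 to 1.04), with 22.4 against 1.79 CPM (3.07, 2.83 to 4.51). All 22 Ly49 cells with Fcer1g had a CD3 chain and 21 had a TRB contig, 2 had Tyrobp, which encodes the DAP12 adaptor, and none had a UMI of the myeloid gene Lyz2. Leaving out all cells with Fcer1g moved the log2 ratio of Klrk1 to 0.54, under 1.5-fold, and of Klrc2 to 2.10. Ptpn6, the phosphatase recruited by Ly49 tails, had 297 against 227 CPM (0.39, 0.25 to 0.53), and Sh2d1a, which encodes the adaptor SAP, had 132 against 93.8 CPM (0.49, 0.28 to 0.70).

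Genes for the ligands of Ly49 receptors, MHC class I molecules and their loading machinery, were slightly lower. Of 18 such genes, 15 lay below 0, beside 57.5% of all genes, and the median log2 ratio was -0.15, beside -0.05 over all genes. For 9 the interval lay below 0, a count not made for all genes. Past 1.5-fold, 1 was lower and none higher, beside 7.7% and 2.43% of all genes. H2-K1 had a ratio of -0.17 (-0.22 to -0.11) and H2-D1 of -0.16 (-0.22 to -0.11), both classical class I genes. Tap1, a subunit of the peptide transporter, was lowest at 69.5 against 112 CPM (-0.68, -0.97 to -0.41) and Tap2 had -0.43. Nearby in size, 32 of 34 interferon-stimulated genes lay below 0, with a median of -0.33. Of them 6 were past 1.5-fold lower, beside 7.7% of all genes. With Ccl5 on both sides 3 were, beside 7.13%, and the median was -0.26. At matched depth 5 were lower and 1 higher, beside 10.5% and 4.85%, and the median was -0.21. Isg20, which encodes an antiviral exonuclease, had -0.88 (-1.65 to -0.29).

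The cytokine receptor chain shared by interleukin 2 and interleukin 15, Il2rb, was seen in 82.1% of Ly49 and 63.6% of comparison cells. Its level was 399 against 295 CPM (0.43, 0.31 to 0.55). That pathway list was mixed, with a median of 0.03. Of its 24 genes, 1 was past 1.5-fold higher and 3 lower, beside 2.43% and 7.7% of all genes. Bcl2, a survival gene, had 0.28 (0.14 to 0.41) and Il7r -0.24 (-0.35 to -0.13). Il2ra, which encodes the CD25 chain of activated cells, had 0 UMIs in Ly49 cells and 45 in comparison cells, and its interval held 0 at matched depth. Il12rb2, an interleukin 12 receptor chain, was the gene past 1.5-fold higher, on 10 and 24 UMIs (1.13, 0.23 to 2.57; 1.76 at matched depth).

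Memory genes lay mostly above 0, 23 of 28, beside 42.5% of all genes, with a median of 0.23. Past 1.5-fold, 4 were higher, Ccl5 among them, and 3 lower, beside 2.43% and 7.7% of all genes. Eomes, a T-box transcription factor of memory CD8 T cells, had 120.1 against 80.5 CPM (0.57, 0.35 to 0.80) and was seen in 41.0% and 25.5% of cells. Xcl1, a chemokine gene, had 150.1 against 86.6 CPM (0.79, 0.59 to 0.99), and Gzmm, a granzyme gene, 160.1 against 95.9 CPM (0.73, 0.54 to 0.93). Samd3 was the other gene past 1.5-fold higher, at 0.67 (0.40 to 0.96). Ly6c2, a surface antigen of memory CD8 cells, had 2517 against 1990.5 CPM (0.34, 0.29 to 0.39) and was seen in 98.5% and 83.9% of cells. Tbx21, the other T-box factor, had 0.37 (0.04 to 0.70; -0.07 to 0.82 at matched depth) and Cd44, used in the sort, -0.13 (-0.43 to 0.15). Slamf6, a receptor of stem-like cells, was lower at -0.81 (-1.26 to -0.43), and Id2, which encodes a regulator of effector and memory cells, at -0.61, though at 0.04 at matched depth. With Ccl5 on both sides 2 of the 28 were past 1.5-fold higher, beside 2.58% of all genes, as Gzmm then had 0.51 and Samd3 0.52.

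Of 22 naive-like and quiescent genes, 8 were past 1.5-fold lower and 1 higher, beside 7.7% and 2.43% of all genes, with a median of -0.19. Igfbp4, which encodes an insulin-like growth factor binding protein, had 7 UMIs in Ly49 cells and 299 in comparison cells (4.12 against 26.7 CPM; -2.44, -4.02 to -1.64), and -3.16 at matched depth. Itm2a, a membrane protein gene, went the other way with 184 against 111 CPM (0.72, 0.54 to 0.90). Ccr7, the lymph node chemokine receptor, had -0.42 (-0.61 to -0.25). Tcf7, which encodes a transcription factor of naive and stem-like cells, had -0.20 (-0.35 to -0.06). Of 18 memory and stem-like transcription factors none was past 1.5-fold higher and 1 was lower, Myb, on 13 and 141 UMIs (-0.65, -1.66 to 0.10).

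Of 21 effector differentiation genes, 9 were past 1.5-fold lower and 1, Anxa2, was higher, beside 7.7% and 2.43% of all genes, with a median of -0.12. At matched depth 6 of 19 were lower and 3 higher, beside 10.5% and 4.85%, and the median was -0.01. Gzmb, which encodes granzyme B, had 10 UMIs in 6 Ly49 cells and 222 in 69 comparison cells (-1.60, -2.83 to -0.85), but -0.92 (-3.46 to 0.50) at matched depth. Gzma had -0.94 (-1.58 to -0.44), and -1.52 (-3.13 to -0.50) at matched depth, though it was seen in 3.09% of Ly49 and 3.52% of comparison cells. Gzmk had 3 UMIs in Ly49 cells and 114 in comparison cells, a ratio of 0.173 (0.0352 to 0.520), and its log2 ratio at matched depth was -0.91 with an interval holding 0 (-4.31 to 0.76). Of 21 granule genes, 4 were past 1.5-fold lower and Gzmm was the 1 higher. Lamp1, a granule membrane protein gene, had 0.38 (0.17 to 0.58). Prf1, which encodes perforin, differed by less than its interval, at -0.09 (-0.40 to 0.20).

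Several inhibitory receptors and anergy-associated genes were lower in Ly49 cells, on few UMIs. Pdcd1, which encodes PD-1, and Nrn1 each had 1 UMI in Ly49 cells, against 74 and 144 in comparison cells, with ratios of 0.0890 (0.00222 to 0.512) and 0.0458 (0.00115 to 0.259); at matched depth the interval of Pdcd1 held 0. Ctla4 had 5 against 225 UMIs (log2 -2.42, -4.41 to -1.53) and Cd200 2 against 121, a ratio of 0.109 (0.0130 to 0.402). At matched depth Ctla4 had -2.45 (-6.01 to -1.06) and Cd200 -1.20 (-4.65 to 0.39). Of 18 anergy-associated genes, 9 were past 1.5-fold lower and 1, Ikzf2, higher, beside 7.7% and 2.43% of all genes. Their median of -0.46 was the lowest of the 20 lists. Pdcd1, Ctla4 and Tigit are also on the next list and on that of regulatory CD8 genes below, so these counts are not separate. Of 24 inhibitory and costimulatory receptors, 8 were past 1.5-fold lower, beside 7.7% of all genes, and 5 with Ccl5 on both sides, beside 7.13%. None was higher, while 8 lay above 0. Among the latter, Tigit had 0.35 (-0.48 to 1.18) and Cd160 0.26 (-0.08 to 0.61), and the inhibitory chain Klrc1 was higher, as given above. Csf1, a cytokine gene, had 0 UMIs in Ly49 cells and 78 in comparison cells, a ratio of 0 with an upper bound of 0.319. At matched depth its log2 interval held 0.

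Genes named in work on regulatory CD8 cells, a subset described by Ly49 receptors and the factor Helios, were split. Ikzf2, which encodes Helios, had 45 UMIs in 35 Ly49 cells and 184 in 117 comparison cells (26.5 against 16.4 CPM; 0.66, 0.18 to 1.17), with 1.06 at matched depth, 0.95 with Ccl5 on both sides and 0.31 without Fcer1g cells. Cd38, an ectoenzyme gene, had 19 against 49 UMIs (1.18, 0.51 to 2.14). Ikzf2 and Cd38 were the 2 of 19 genes past 1.5-fold higher, and 7 were lower, beside 2.43% and 7.7% of all genes. Pdcd1, Ctla4 and Gzmb were among the 7, and the median was -0.37. At matched depth 4 of 18 were lower and 5 higher, beside 10.5% and 4.85% of all genes, with a median of -0.12. Ikzf2 was also seen in 4.17% and 2.91% of cells after thinning.

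Both CD8 chains were lower, by more than the CD3 chains. Cd8a had 399 against 593 CPM (-0.57, -0.69 to -0.46) and Cd8b1 1116 against 1456 CPM (-0.38, -0.45 to -0.31). The values at matched depth were -0.57 and -0.38. Cd3e had 887 against 925 CPM (-0.06, -0.14 to 0.02), Cd3d -0.02 and Cd3g -0.11 (-0.19 to -0.02). Of 29 genes of the receptor complex and its proximal signalling, none was past 1.5-fold lower and 1 was higher, beside 7.7% and 2.43% of all genes. Their median log2 ratio was -0.06, beside -0.05 over all genes. An interval below 0 was found for 9, a count not made for all genes. Among them were Lat, an adaptor (-0.46, -0.58 to -0.35), and Lcp2 (-0.56, -0.84 to -0.30). Ubash3b, a phosphatase gene that limits receptor signals, was past 1.5-fold higher at 0.60 (0.21 to 1.02), and Cd5 had -0.14 (-0.33 to 0.05).

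Among 29 homing and adhesion genes, 3 were past 1.5-fold lower, a share near the 7.7% of all genes. They were Itgae, Ccr10, on 4 and 103 UMIs (-1.60, and -2.80 at matched depth), and Itga1, on 7 and 91 UMIs with an interval holding 0 (-0.83, -2.34 to 0.12). Itga4 had -0.20 (-0.71 to 0.27). Cell cycle genes had a median of 0.03, with 1 of 15 past 1.5-fold lower, Mki67, on 4 and 55 UMIs with an interval holding 0. Of 30 genes induced through the T cell receptor, none was past 1.5-fold higher and 4 were lower, and of 15 genes of the TGF-beta pathway 2 were lower, beside 7.7% of all genes lower. Dissociation stress genes had a median of 0.09 and none of 10 past 1.5-fold.

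**Figure D3:**
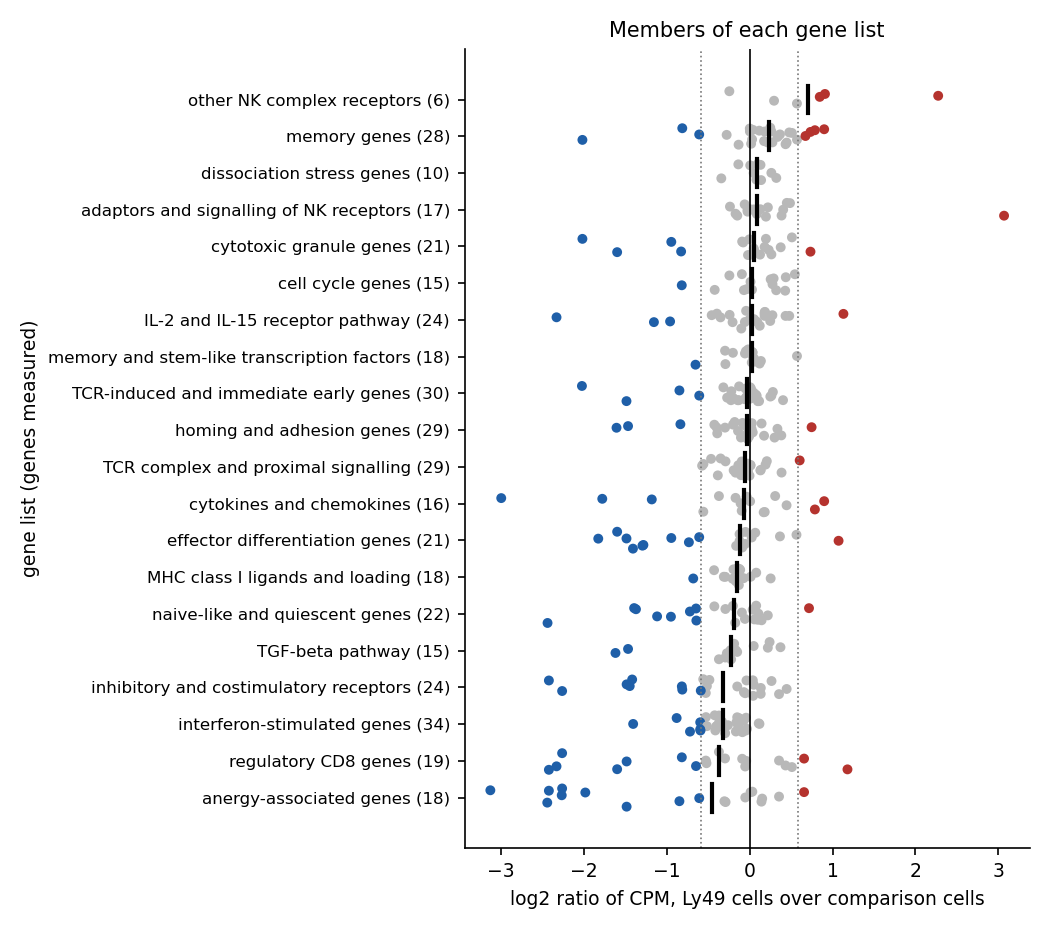
Log2 ratio of CPM, Ly49 over comparison cells, for the members of each gene list with at least 20 UMIs; each point is a gene, red and blue points are past 1.5-fold (dotted lines), and black bars are list medians. The medians go from -0.46 for anergy-associated genes to 0.71 for the other NK complex receptors.

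Levels of several genes moved with the number of gate UMIs. For Ccl5 they were 2381 CPM at a sum of 0, 3286 at 1, 4048 at 2 to 3, 4870.2 at 4 to 6 and 5818 (5476 to 6176) at 7 or more, over 2616, 326, 217, 77 and 30 cells. Anxa2 went from 54.1 and 57.6 CPM at sums of 0 and 1 to 80.0 (64.2 to 98.6), 145 (111 to 187) and 254 (186 to 337). Cd8a went the other way, from 593 and 492 CPM to 448, 341 and 232 (168 to 313). Fcer1g had 1.79, 4.8, 14.5, 21.8 and 70.2 (37.4 to 120) CPM. In cells with 3000 to 6000 UMIs, Ccl5 had 2365, 3418, 4426, 5656 and 7241 CPM, Anxa2 51.7, 62.1, 103, 172 and 244 and Cd8a 544, 491, 406, 289.7 and 267, in the same order. Ctla2a did not keep its order there, with 567 CPM at 4 to 6 and 395 at 7 or more. Ctla2b stayed between 40.8 and 48.4 CPM at every sum of 1 or more, and Itgae had 53.8, 25.8, 13.6, 19.4 and 48.6. For Klrd1 the neighbouring levels at a sum of 1 and above overlapped in their intervals, at 299, 304, 334 and 329 CPM.

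**Figure D4:**
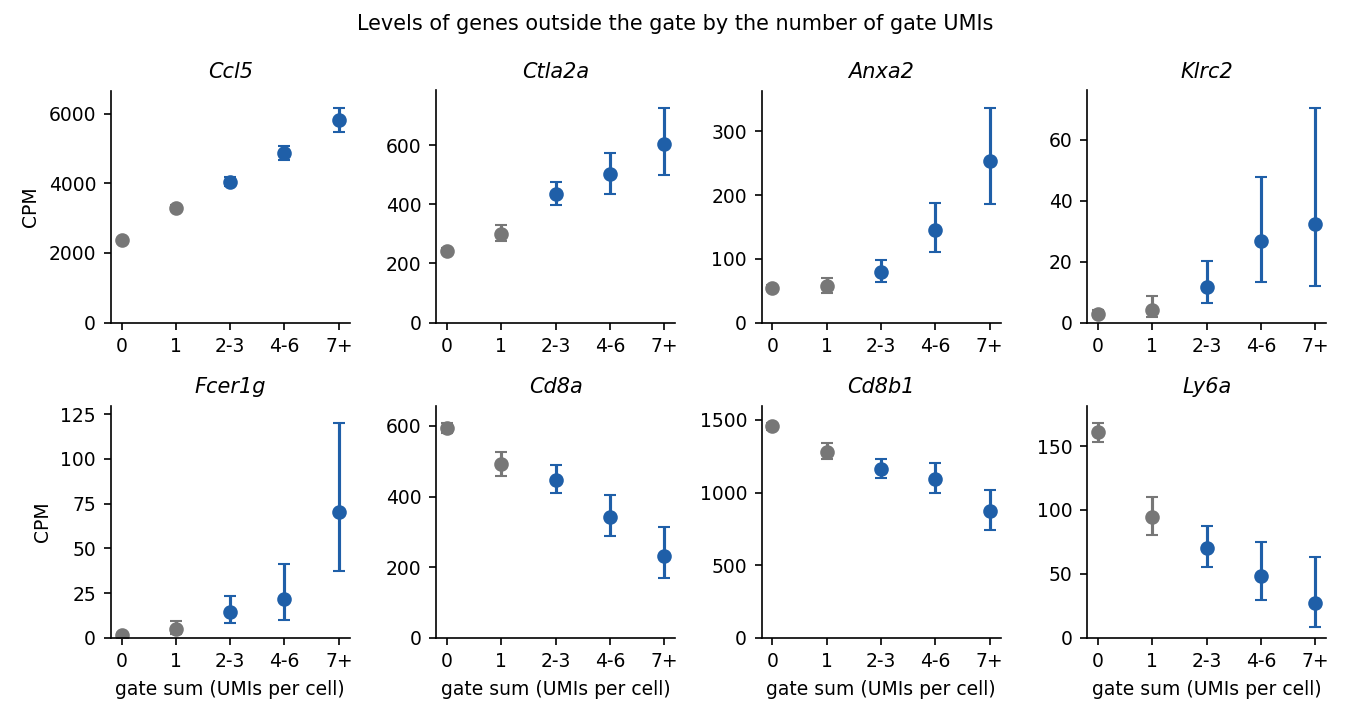
Levels (y axis, CPM from 0) of 8 genes outside the gate by the gate sum per cell (x axis), with exact Poisson 95% intervals; grey points are cells outside the Ly49 gate and blue points are Ly49 cells. Ccl5, Ctla2a and Anxa2 are highest, and Cd8a, Cd8b1 and Ly6a lowest, at sums of 7 or more.

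Ly49 cells were not uniform: those in which Klra3 was the only gate gene differed from the rest. This split was made after the values were seen and has no test. It gave 49 cells with Klra3 alone, 61 with Klra3 and another gate gene and 214 without Klra3, with medians of 5258.0, 5104.0 and 4788.0 UMIs. Of 2876 genes with at least 50 UMIs over the first and last of these, 140 (4.87%) were past 1.5-fold higher in cells with Klra3 alone and 261 (9.08%) lower. Ccl5 had 1861 CPM (1701 to 2033) with Klra3 alone, 4422 (4201 to 4652) with Klra3 and another gene and 5076 (4944 to 5212) without Klra3. The first value lay below the 2381 CPM of comparison cells. The share of cells with a Ccl5 UMI went the other way. It was 87.8% (75.2 to 95.4) with Klra3 alone and 78.5% in comparison cells, at medians of 5258.0 and 4275.0 UMIs.

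Other genes also differed in the same cells, and some of those that were high in the group were lower there. Klrd1 had 169 CPM (123 to 226) with Klra3 alone against 349.8 (316 to 387) without Klra3, and Klrk1 18.8 (6.09 to 43.8) against 76.9 (61.4 to 95.2). Ikzf2 was seen in 0 of 49 cells (upper bound 7.25%) against 28 of 214. Fasl, which encodes a death ligand, and Cd160, which encodes an NK-type receptor, were also among the 10 lowest genes, at -2.40 and -1.83. Dapl1 was the highest gene, with 173 CPM (126 to 230.3) against 58.6 (45.1 to 74.8), close to the 201 CPM of comparison cells. Cd8b1 had 1464 CPM (1322 to 1616) against 1048 (988 to 1110), beside 1456 in comparison cells.

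Levels of further genes overlapped in their intervals among the 3 sets of Ly49 cells. Ly6c2 had 2515, 2616 and 2487 CPM in the 3 sets, against 1990.5 in comparison cells, and Rgcc had 18.8, 17.7 and 15.6 CPM, against 68.4. Ly6a had 78.8 (48.8 to 120.5), 47.1 and 59.5 CPM, against 161. At least 2 TRB sequences were found in 8 of 46 cells with Klra3 alone that had a TRB contig (17.4%, 7.82 to 31.4) and in 25 of 195 without Klra3 (12.8%, 8.47 to 18.3). Without the cells with Klra3 alone, the log2 ratio of Ly49 over comparison cells was 1.05 for Ccl5, -1.74 for Dapl1 and -0.47 for Cd8b1.

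**Figure D5:**
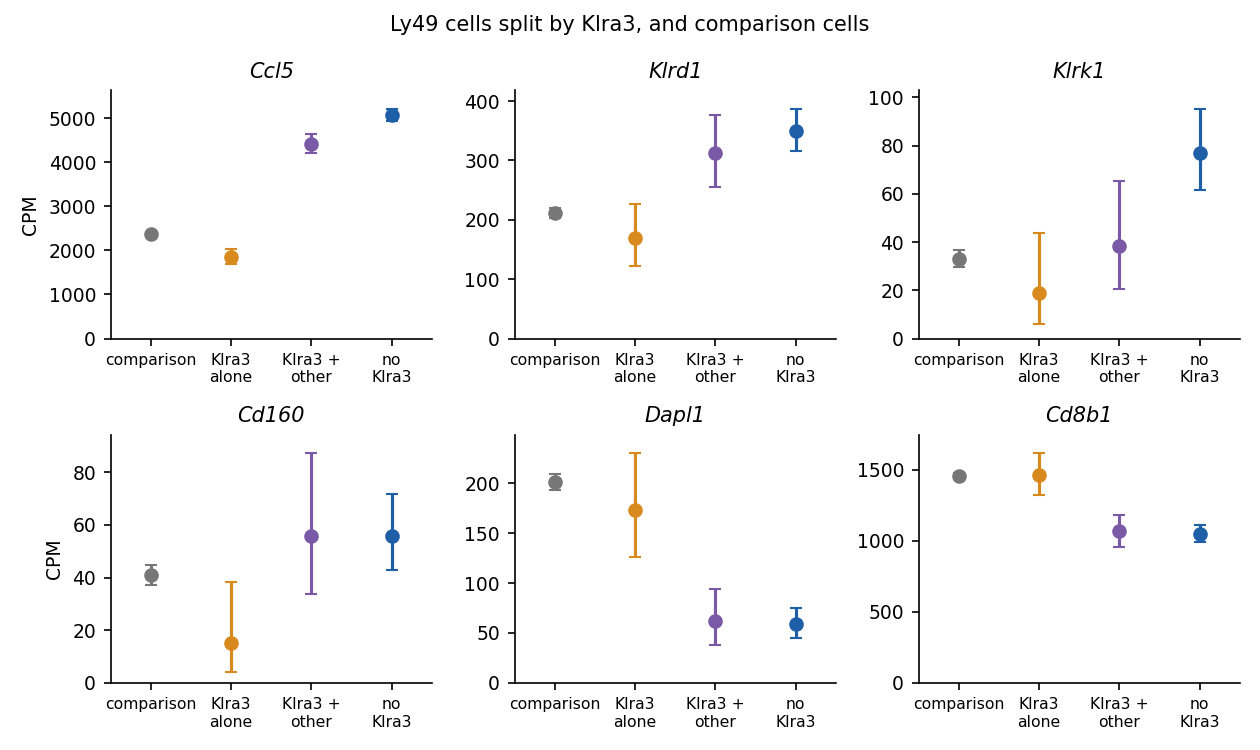
Levels (y axis, CPM from 0) of 6 genes in comparison cells (grey) and in Ly49 cells with Klra3 alone (orange), with Klra3 and another gate gene (purple) or without Klra3 (blue), with exact Poisson 95% intervals. Ccl5 is at 1861 CPM with Klra3 alone and at 4422 and 5076 in the other Ly49 cells.

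Cells with a gate sum of 1, which neither side of the comparison nor this split had used, were then set out by the gate gene they carried. The 95 cells with Klra3 had 1754 CPM (1636 to 1879) of Ccl5. The 108 cells with Klra7 had 3197 (3054 to 3346), the 39 with Klra6 had 3460.2 and the 59 with Klre1 had 5459 (5196 to 5733). The 12 and 13 cells with Klra1 and Klra9 had 4843 and 3232. Dapl1 had 121 CPM (91.2 to 157) with Klra3, 65.5 (46.3 to 89.9) with Klra7 and 92.7 (54.9 to 146) with Klra6. Klrk1 was lowest with Klra3, at 8.62 CPM (2.35 to 22.1), but overlapped cells with Klra7 (20.7, 10.7 to 36.1). It was highest with Klre1, at 119 CPM (83.0 to 166), and had 96.3 with Klra9, 65.9 with Klra1 and 36.0 with Klra6. Cd8b1 had 1334 CPM (1231 to 1443) with Klra3. It had 1549.9 with Klra6, 1215 with Klra7, 1229 with Klre1, 1038 with Klra1 and 1197 with Klra9. Klrd1 had 315 CPM (266 to 370) with Klra3, 241 (203 to 285) with Klra7 and 395 (326 to 474) with Klre1. For both genes the interval with Klra3 overlapped that of every other gate gene. So the lower Ccl5 of cells with Klra3 alone was met again in these cells. For the higher Cd8b1 and the lower Klrd1 the overlapping intervals did not decide.

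The receptors of Ly49 cells were diverse. Cells with the same TRB and the same TRA nucleotides over the CDR3, the part of each chain that touches the antigen, were taken as a clone. Such a pair was found in 215 Ly49 cells, which fell into 214 clones. Cells in clones of 2 or more cells made up 3.26% (1.32 to 6.59) of Ly49 cells and 5.34% (4.32 to 6.52) of the 1704 comparison cells with a clone. The window of 3000 to 6000 UMIs gave 1.86% and 2.51%. Clones also found in the skin library held 0 of 215 Ly49 cells (upper bound 1.70%) and 28 of 1704 comparison cells (1.64%, 1.09 to 2.37), intervals that overlap. The lymph node gene table shared 12 barcodes with the skin receptor table.

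Whether cells of 1 clone shared the receptor state could be asked in 48 clones with 2 or more cells in the gene table. They held 50 pairs of cells, of which 1 had both cells Ly49, 3 had 1 Ly49 and 1 comparison cell, 38 had both comparison cells and 8 included a cell with a sum of 1. Too few pairs included a Ly49 cell to compare the states. The clone with both cells Ly49 used TRBV1 with TRBJ1-4 and TRAV3-3 with TRAJ56. Its cells had gate sums of 5 and 2 at 2307 and 1919 UMIs, and Klra6 was in both. Its CDR3 sequences are shown since it is the only clone of its kind here.
TRB: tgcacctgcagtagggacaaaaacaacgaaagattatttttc
TRA: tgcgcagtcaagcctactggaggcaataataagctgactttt

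Counted once per clone, TRBV12-2 was used by 29 of 214 Ly49 clones (13.6%, 9.27 to 18.9) and 127 of 1667 comparison clones (7.62%, 6.39 to 9.0), a ratio of 1.78 (1.15 to 2.68) and 1.91 at matched depth. A further 20 Ly49 and 152 comparison clones were called TRBV12-2+TRBV13-2 in the deposited table and were not counted in it. Counted together, as an alternative added after seeing the data, the shares were 22.9% (17.4 to 29.1) and 16.7%, a ratio of 1.37 (0.988 to 1.86) whose interval holds 1. TRBV12-2 alone was the only 1 of 20 TRBV segments with at least 20 clones whose interval left out 1, and 8 of the 20 were past 1.5-fold in either direction. No interval left out 1 among 37 TRAV, 12 TRBJ and 38 TRAJ segments. TRAV12-2 was used by 8.88% and 5.16% of clones, a ratio of 1.72 (0.988 to 2.85) and 1.14 at matched depth. The median CDR3 length was 14 amino acids for both chains on both sides, and 15.9% (11.3 to 21.5) of Ly49 and 13.1% (11.5 to 14.8) of comparison clones had 2 TRA sequences.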

How the data were processed

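The lymph node table holds UMI counts per gene and cell, deposited by the authors with the 4 lanes pooled. Bowtie, RSEM and the build mm10 appear in the submitters' processing notes, without versions or roles. The deposited receptor tables give contigs with UMI counts; productive, full-length, high-confidence TRA and TRB contigs were kept (7423 of 9927 in the lymph node, 3603 of 4545 in skin). A clone needed 1 TRB and 1 or 2 TRA sequences. Lanes were not treated as replicates.

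UMIs were summed over Ly49 cells (1698450) and comparison cells (11192203) and divided by the totals to give CPM. Log2 ratios carry a prior of 1 CPM, and exact 95% intervals were computed from the counts without it. Shares carry Clopper-Pearson intervals. Genes needed 50 UMIs, or 20 for lists.

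The members and lists were chosen with earlier results of these data known. The named genes were the 15 highest and 15 lowest detected in 10% or more of cells on the side where they were higher, with an interval without 0 and the same sign in cells with 3000 to 6000 UMIs, without receptor, mitochondrial and ribosomal genes. Added were 2 extremes of each list and sort, memory and NK complex genes. The comparison was tested on simulated data. Alternatives were other gates, depth windows, thinning, priors, scalings and cell sets, of which leaving out Fcer1g cells, effector, resident or anergic cells and cells with Klra3 alone, and joining TRBV12-2 calls, was chosen after seeing the data. Doublets were not removed. Of 9428 gene names, 9361 matched GENCODE M21. A few genes of the lists are not reported here.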

Additional observations from a re-analysis of the deposited data

How the results depend on the processing

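Ly49 cells made up 5.79% of cells at a gate sum of 3 or more, 19.9% at 1 or more and 7.75% without Klre1. Genes past 1.5-fold higher numbered 312 at a sum of 3 or more, 89 at 1 or more, 275 in cells with 3000 to 6000 UMIs, 274 after thinning to 2000 UMIs, 33 with a prior of 10 CPM and 36 with at least 200 UMIs per gene. Genes past 1.5-fold lower numbered 341 at a sum of 1 or more, 99 with the prior of 10 CPM, 941 with each cell weighted equally, 148 with at least 200 UMIs and 395 in a setting added after seeing the data, which kept cells with Ccl5 and left out those with genes of effector, resident or anergic cells, several of them already seen to be lower. Fewer genes are tested at 200 UMIs, and the cause of the other changes was not tested. The median of the other NK complex receptors was 0.47 without Klre1 in the gate, and that of effector genes was 0.13 in the added setting. Cells of expanded clones were 9.73% by TRB alone and 0.0% for clones of 3 or more cells, and Ly49 partners of Ly49 cells within clones went from 40.0% (2 of 5) to 0.0% of 2 at a sum of 3 or more and in cells with 3000 to 6000 UMIs. Tefm turned to -0.24 after thinning, and S100a4 (0.070), Cd83 (0.047) and Mki67 (0.14) turned in the added setting. Of the other values, 318 of list medians and 1425 of named genes moved by less than their interval or spread, and 116 of named genes moved by more. Of these, 99 kept their sign, 9 under 1.5-fold changed it and 8 were 0 because every cell with the gene had been left out. No paired analysis was possible because both sides are cells of 1 library. Depth limits genes of few UMIs: 3 counts are 1.77 CPM on the Ly49 side.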
